A study of Mus musculus with 6 samples.

Results

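The genes described are 9 histone acetyltransferases, the enzymes that add acetyl groups to lysines of histone tails: Ep300, Crebbp, Kat2a, Kat2b, Kat5, Kat6a, Kat6b, Kat7 and Kat8. They were taken by symbol from a deposited table of read counts, each symbol matched 1 row, and they make up 9 of the 43346 genes in that table. RNA came from limb bones of 1 day old C57BL/6 mouse pups in 6 libraries, 3 of wild type (WT) and 3 of Hdac3 CKO, which the series describes as a conditional knockout with PRX1. Prx1 regulatory sequence is known as a driver of Cre in mesenchyme of the limb bud, so blood cells and muscle fibres in the same tissue are not targeted. The labels do not name the Cre or floxed alleles, litter or pooling of animals. The p-values thus reflect library-to-library spread, part of which may be technical.

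Histone acetylation loosens chromatin at promoters and enhancers and is removed by deacetylases such as the product of Hdac3, the gene targeted here. Ep300 and its paralogue Crebbp encode large coactivators, p300 and CBP, which many transcription factors recruit, among them RUNX2 in osteoblasts and SOX9 in chondrocytes. Kat2a and Kat2b encode GCN5 and PCAF, catalytic subunits of the SAGA and ATAC complexes. The remaining 5 genes encode MYST family enzymes: Kat5 (TIP60) works in the NuA4 complex, Kat6a (MOZ), Kat6b (MORF) and Kat7 (HBO1) pair with BRPF or JADE scaffolds, and Kat8 (MOF) acts in the MSL and NSL complexes. The comparison asks whether the level of mRNA for these opposing enzymes differed where Hdac3 was reduced.

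The promoter windows of the pair with the smallest p-values are shown because they are unlike each other. RefSeq windows on GRCm38.p6 run from 250 bases before to 50 bases after a start site and were found for 8 of the 9 genes, 12 windows in all, with no window for Kat6a. Capitals mark matches on either strand to the GC box (GGGCGG) or the CCAAT box (CCAAT), and neighbouring GC boxes may overlap. The Kat6b window shown is chr14:21499520-21499819, plus strand, and the Kat2b window shown is chr17:53566721-53567020, plus strand. Each of these genes has another window, not shown. That of Kat6b, chr14:21499535-21499834, overlaps the window shown. That of Kat2b, chr17:53583876-53584175, holds neither box.
Kat6b: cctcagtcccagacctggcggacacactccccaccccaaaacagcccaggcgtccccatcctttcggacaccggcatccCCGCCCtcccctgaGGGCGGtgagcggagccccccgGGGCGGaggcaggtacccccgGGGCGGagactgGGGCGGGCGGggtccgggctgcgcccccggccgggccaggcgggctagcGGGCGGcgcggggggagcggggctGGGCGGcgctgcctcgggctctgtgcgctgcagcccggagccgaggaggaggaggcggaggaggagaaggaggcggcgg
Kat2b: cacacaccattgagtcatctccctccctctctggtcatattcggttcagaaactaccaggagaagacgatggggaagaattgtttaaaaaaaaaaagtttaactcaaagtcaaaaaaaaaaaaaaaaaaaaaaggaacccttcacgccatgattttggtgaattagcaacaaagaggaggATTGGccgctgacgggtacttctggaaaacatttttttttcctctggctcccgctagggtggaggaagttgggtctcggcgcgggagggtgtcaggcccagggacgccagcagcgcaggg
The Kat6b window shown had a GC content of 78.3% and 32 CpG dinucleotides, while the Kat2b window shown had 47.0% and 11. The windows not shown had 79.3% and 34 for Kat6b, and 48.3% and 6 for Kat2b. Crebbp was the richest of the 12 windows, with 82.0% and 49 CpG, and the Ep300 window had 72.3% and 30. The median was 19 CpG over the 12 windows and 7 over all 32851 windows of the same length. A GC box was present in 7 of the 12, against 35.7% of all windows, and a CCAAT box in 5, against 37.4%. Windows of the same gene, also overlapping ones, are counted separately. A TATA box (TATAAA) was present in 0 of the 12 and in 13.6% of all windows. A cyclic AMP response element (TGACGTCA) was present in 0, against 1.79% of all windows. These matches describe letters in the windows and not factor binding.

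Before the genes are compared, the libraries need a short account. Total counts ranged from 43389262 to 50927978. Values below are CPM, counts scaled to library size with trimmed mean of M-values (TMM) factors, unless given per kilobase. Hdac3 stood at 48.4, 47.4 and 50.3 CPM in WT and at 31.8, 29.4 and 28.3 CPM in Hdac3 CKO. Its log2 fold change was -0.71 ± 0.12 (SE), and edgeR's quasi-likelihood test gave it an adjusted p of 0.029. This call was lost on leaving out any library but Hdac3 CKO replicate 1: the adjusted p was then 0.129, 0.125 and 0.109 for the WT libraries in turn, and 0.067 and 0.110 for Hdac3 CKO libraries 2 and 3. The log2 fold change of Hdac3 lay between -0.76 and -0.67 with 1 library left out. Osteoblast and bone markers, summed over 10 genes, were abundant in every library, at 46148 to 61469 CPM in WT and 71006 to 101337 CPM in Hdac3 CKO. Most of that sum was Col1a1 and Col1a2, the type I collagen genes, with log2 fold changes of 0.75 and 0.64. The other 8 summed to 3109 to 5616 CPM in WT and 5789 to 9213 CPM in Hdac3 CKO. Within them the osteoblast regulator Runx2 had a log2 fold change of -0.44, below 0 as were Bglap at -0.23 and Bglap2 at -0.43. Above 0 stood Ibsp at 1.21, Dmp1 at 1.14, Spp1 at 0.51, Sp7 at 0.38 and Alpl at 0.18. Of the 10, only Dmp1 was called (adjusted p 0.044 in edgeR's quasi-likelihood test). None of the marker genes that the table listed was at 0. Of other cell types, 10 cartilage markers summed to 9062 CPM in WT replicate 3 and 16962 CPM in Hdac3 CKO replicate 3, against 1918 to 2625 CPM in the other 4 libraries. The 8 skeletal muscle markers summed to 52123 CPM in Hdac3 CKO replicate 1 and to 31180 to 36594 CPM elsewhere. Acta1, Ckm, Myh8, Tnnt3, Tnni2 and Mylpf were highest in that library, while Myh3 was highest in Hdac3 CKO replicate 2. Ttn, the longest of them at 116825 bases, was lowest in Hdac3 CKO replicate 1, at 3023 CPM against 4000 to 5146 CPM elsewhere. Among blood cells, 8 macrophage markers summed to 268 to 284 CPM in WT and 494 to 569 CPM in Hdac3 CKO. The sums of 9 erythroid markers were 268 to 440 and 171 to 214 CPM, those of 8 neutrophil markers 88.2 to 262 and 19.4 to 29.7 CPM, and those of 8 B lymphoid markers 59.3 to 86.1 and 26.1 to 42.1 CPM, in WT and Hdac3 CKO respectively. Ebf1 made up most of the B lymphoid sum, and the other 7 markers summed to 7.79 to 21.6 CPM in WT and 3.45 to 4.19 CPM in Hdac3 CKO. In bulk tissue, fewer cells of a type and less RNA per cell cannot be told apart.

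Hdac3 CKO replicate 1 stood apart from the rest by gene length, and it differed from the other Hdac3 CKO libraries by GC content. Levels by GC content were not compared library by library. Among 12095 genes with a mean of at least 5 CPM, those with a deposited length over 9 kb had a median log2 level 0.25 below the mean of the 6 libraries in this library, a deviation of -0.25. Genes under 1 kb stood 0.29 above it. In the other 5 libraries the same medians lay between -0.12 and 0.14. Both ends were WT replicate 1, at -0.12 under 1 kb and 0.14 over 9 kb, a slope opposite to that of Hdac3 CKO replicate 1. The difference between Hdac3 CKO replicate 1 and the mean of the other Hdac3 CKO libraries had a Spearman correlation over genes of -0.42 with length and 0.60 with GC content, given as a description. The 9 acetyltransferase genes span these lengths, from 1573 bases for Kat8 to 16826 bases for Kat6b, and 4 of them are over 9 kb. The fold changes of the 9 genes, the paralogue ratios and the lists of related genes are therefore also given without Hdac3 CKO replicate 1.

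None of the 9 histone acetyltransferase genes passed the test between genotypes. At an adjusted p under 0.05 in edgeR's quasi-likelihood test 0 rose and 0 fell, where 1.12% of 20210 tested genes were called, 0.668% as higher and 0.450% as lower. DESeq2 and limma-voom also called 0 of the 9, where they called 4.12% and 0.777% of all tested genes. At an unadjusted p under 0.05 there were 2, Kat6b and Kat2b, both lower in Hdac3 CKO, beside 14.7% of all tested genes in either direction, 7.0% lower and 7.68% higher. This count was 6 of 9 with library totals and 5 in limma after adding 1 to RPKM. With the gene length and GC offsets described below it was also 5. It was 0 without WT replicate 1, without WT replicate 3 or with the muscle covariate. Without WT replicate 2, without Hdac3 CKO replicate 1 and with the cartilage covariate it was 1, and in the remaining alternatives 2. Without Hdac3 CKO replicate 1 the share of all genes then tested was 13.4%. That share was not computed for the other alternatives, so their counts stand without a background. Values did not overlap between the genotypes for 3 of the 9, Kat6b, Kat2b and Kat5, all lower, beside 22.5% of all tested genes, 10.9% lower and 11.5% higher. These shares rest on 9 genes and nothing is read from their difference from the background. The log2 fold change was below 0 for 8 genes and above 0 for Kat8, with a median of -0.21, while the median of all tested genes was 0.00088 and 49.9% of them stood below 0. Scaling by library totals alone moved the all-gene median to -0.18 and the median of the 9 genes to -0.38. The 95% intervals of the 9 fold changes lay between 0.598 and 1.496 times the WT level.

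**Figure D1:**
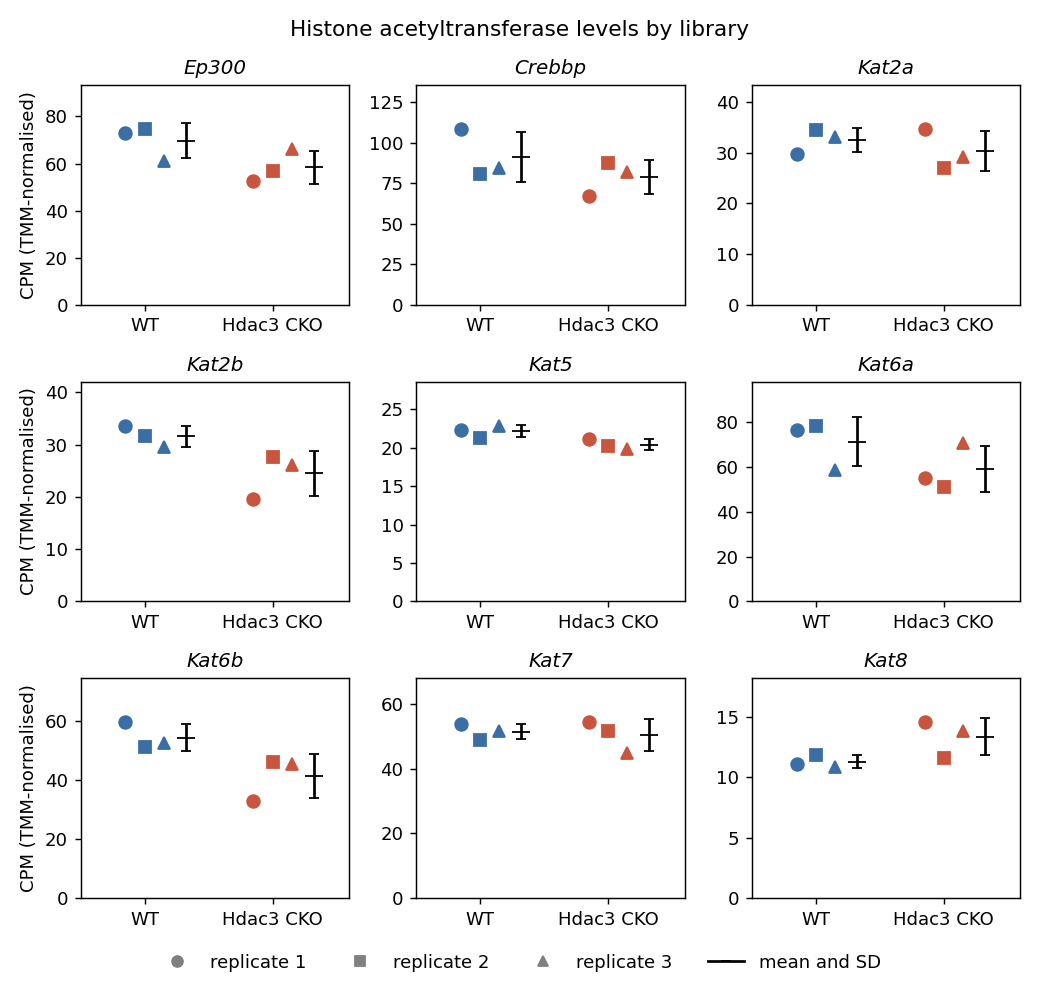
TMM-normalised CPM of each acetyltransferase gene in the 3 WT (blue) and 3 Hdac3 CKO (red) libraries, with marker shape for the replicate and black bars for mean and SD; every axis starts at 0. Kat6b and Kat2b show a gap between genotypes with Hdac3 CKO replicate 1 lowest, Kat5 a far smaller gap, and the other 6 genes overlap.

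Among the p300 and CBP coactivators, Ep300 (chromosome 15, 81585351 to 81652072) stood at 73.1, 74.7 and 61.2 CPM in WT and at 52.5, 56.8 and 66.2 CPM in Hdac3 CKO. The genotypes overlapped through WT replicate 3 and Hdac3 CKO replicate 3, the libraries with the highest cartilage markers. The first was the lowest WT library for Ep300 and the second the highest Hdac3 CKO library. Its log2 fold change was -0.25 ± 0.14 (SE, adjusted p 0.428 in edgeR's quasi-likelihood test), and without both of those libraries it was -0.44. With the mean of the cartilage markers as a covariate it was -0.25, and the part of cartilage was not tested. Without Hdac3 CKO replicate 1 it was -0.19. Crebbp (chromosome 16, 4081328 to 4213407) stood at 108, 80.5 and 84.3 CPM in WT and at 67.2, 87.7 and 81.8 CPM in Hdac3 CKO. Its highest library was WT replicate 1 and its lowest Hdac3 CKO replicate 1, while the other 4 lay within 80.5 to 87.7 CPM. This gave a log2 fold change of -0.21 ± 0.16 (SE; adjusted p 0.566 in edgeR's quasi-likelihood test). Leaving out WT replicate 1 moved it to -0.06, and leaving out Hdac3 CKO replicate 1 to -0.11.

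Of the GCN5 family, Kat2b (chromosome 17, 53566861 to 53672720), which encodes PCAF, stood at 33.7, 31.6 and 29.6 CPM in WT and at 19.7, 27.7 and 26.2 CPM in Hdac3 CKO. All 3 Hdac3 CKO libraries lay below all 3 WT libraries, the nearest pair being 27.7 and 29.6 CPM. The mean was 31.6 ± 2.0 CPM (SD, n = 3) in WT and 24.5 ± 4.3 CPM (SD, n = 3) in Hdac3 CKO, a fold of 0.775 with a 95% interval of 0.611 to 0.985. The log2 fold change of -0.37 ± 0.15 (SE) had an unadjusted p of 0.039 (adjusted p 0.314 in edgeR's quasi-likelihood test). Exact permutation of the libraries, two-sided, gave p = 0.1, which is the lowest value possible with 3 against 3. Its log2 fold change was -0.24 without Hdac3 CKO replicate 1 and -0.32 without WT replicate 1. Its paralogue Kat2a (chromosome 11, 100704746 to 100712465), the gene of GCN5, stood at 29.8, 34.4 and 33.1 CPM in WT and at 34.7, 27.0 and 29.2 CPM in Hdac3 CKO. Here Hdac3 CKO replicate 1 was the highest of the 6 libraries and the genotypes overlapped. For Kat2a the log2 fold change was -0.10 ± 0.14 (SE; adjusted p 0.775 in edgeR's quasi-likelihood test). It ranged from -0.22 without Hdac3 CKO replicate 1 to -0.02 without Hdac3 CKO replicate 2, and was -0.16 and -0.05 without WT replicates 1 and 2.

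In the MYST family, Kat6b (chromosome 14, 21481434 to 21672478) had the smallest p of the 9. It stood at 59.7, 51.1 and 52.7 CPM in WT and at 32.9, 46.0 and 45.5 CPM in Hdac3 CKO. The genotypes did not overlap, and Hdac3 CKO replicate 1 was well below the other libraries of its genotype. The mean was 54.5 ± 4.6 CPM (SD, n = 3) in WT and 41.5 ± 7.4 CPM (SD, n = 3) in Hdac3 CKO, a fold of 0.762 with a 95% interval of 0.598 to 0.969. The log2 fold change of -0.39 ± 0.16 (SE) had an unadjusted p of 0.031 (adjusted p 0.289 in edgeR's quasi-likelihood test), and exact permutation gave p = 0.1. Without Hdac3 CKO replicate 1 it was -0.26, and without WT replicate 1 it was -0.32. Kat6a (chromosome 8, 22859535 to 22943259) stood at 76.5, 78.3 and 58.4 CPM in WT and at 55.2, 50.96 and 70.6 CPM in Hdac3 CKO. As with Ep300, the third replicate of each genotype crossed over. Its log2 fold change was -0.27 ± 0.17 (SE; adjusted p 0.479 in edgeR's quasi-likelihood test), -0.24 without Hdac3 CKO replicate 1 and -0.55 without both cartilage-rich libraries.

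Kat7 (chromosome 11, 95274259 to 95310246), whose enzyme also serves DNA replication origins, showed the smallest difference. It stood at 53.8, 48.9 and 51.8 CPM in WT and at 54.4, 51.7 and 44.8 CPM in Hdac3 CKO. The ranges lay almost on top of each other, and the log2 fold change was -0.03 ± 0.13 (SE) with a 95% interval of -0.31 to 0.25. Its value was -0.10 when Hdac3 CKO replicate 1 was left out and 0.04 when the third was. Kat5 (chromosome 19, 5603017 to 5610094), the catalytic subunit of NuA4, stood at 22.3, 21.3 and 22.9 CPM in WT and at 21.2, 20.2 and 19.9 CPM in Hdac3 CKO. The genotypes did not overlap, but the nearest libraries, at 21.27 and 21.19 CPM, were almost equal. Kat5 had a log2 fold change of -0.12 ± 0.12 (SE; adjusted p 0.684 in edgeR's quasi-likelihood test), and -0.16 without Hdac3 CKO replicate 1. Kat8 (chromosome 7, 127912517 to 127925832), which acetylates histone H4, stood at 11.1, 11.9 and 10.9 CPM in WT and at 14.6, 11.6 and 13.9 CPM in Hdac3 CKO. Hdac3 CKO replicate 2 lay within the WT range and the others above it. Kat8 had a log2 fold change of 0.24 ± 0.15 (SE; adjusted p 0.484 in edgeR's quasi-likelihood test), and 0.16 without Hdac3 CKO replicate 1. In GENCODE M21, exons of Kat5 overlapped those of Rnaseh2c and exons of Kat8 those of Prss8, both on the opposite strand, and Ep300 held the miRNA gene Gm23880. The strand setting of the counting is not given in the sources used here, so some reads of these genes may be shared.

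**Figure D2:**
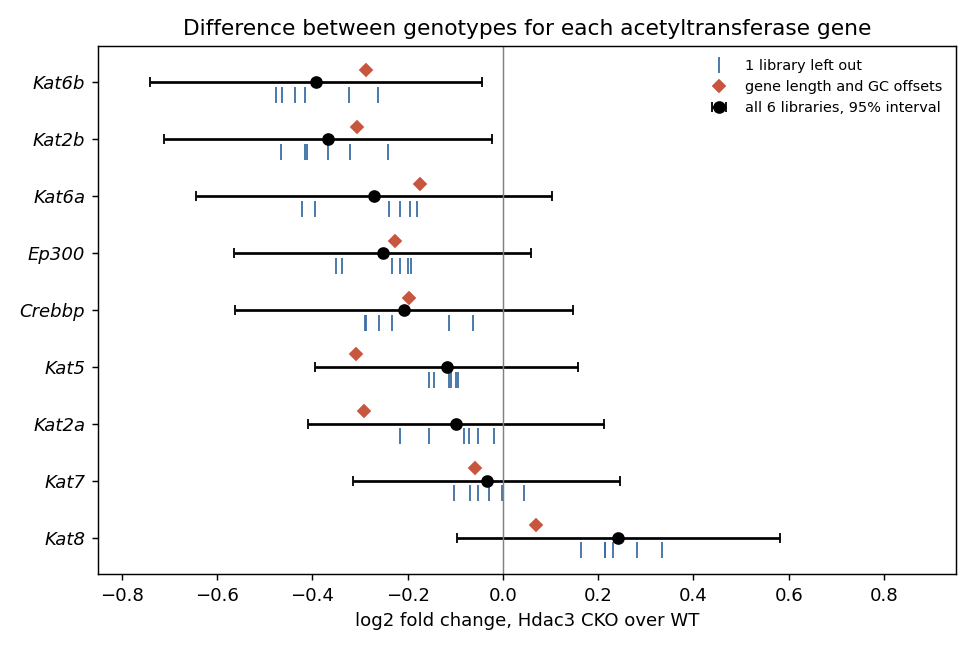
Log2 fold change of each acetyltransferase gene, Hdac3 CKO over WT, with its 95% interval (black), the 6 values with 1 library left out (blue ticks) and the value with gene length and GC offsets (red diamonds). Only the intervals of Kat6b and Kat2b leave out 0; with the offsets Kat8 moves to 0.07 and Kat5 to -0.31.

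Over all genes the log2 fold change varied with gene length and GC content, and the values of the 9 genes are set beside those of their length class; the part of length or GC in them was not tested. Among the 12095 genes, the median log2 fold change was 0.14 for lengths of 1 to 2 kb, where Kat8 lies, and 0.10 for 2 to 3 kb, where Kat5 lies. It was 0.05 for 3 to 4 kb (Kat2a) and 0.0034 for 4 to 6 kb (Kat2b and Kat7). Over 9 kb, where Ep300, Crebbp, Kat6a and Kat6b lie, it was -0.12, with quartiles of -0.33 and 0.08, and 66.3% of 1131 genes stood below 0. Ep300, Crebbp and Kat6a lay inside those quartiles and Kat6b below the lower one. Among the shorter genes, Kat2b lay below the lower quartile of its class, which was -0.19, and Kat5 below that of its own, which was -0.08, while Kat2a, Kat7 and Kat8 lay inside theirs. Across these genes the Spearman correlation of the log2 fold change with length was -0.27, and with GC content of the longest transcript 0.53 over 12012 genes; all genes share the same 6 libraries, and genes are not independent replicates. Hdac3 CKO replicate 1 was the lowest of its genotype for Ep300, Crebbp, Kat2b and Kat6b and the highest for Kat2a, Kat5, Kat7 and Kat8. The difference between this library and the mean of the other Hdac3 CKO libraries was -0.47 for Kat6b and -0.45 for Kat2b on the log2 scale, and 0.30 for Kat2a and 0.20 for Kat8. For Kat2b this is far from the median of its length class, 0.02. By GC content, Kat2b was the lowest of the 9 genes at 46.6%, and Kat2a the highest at 57.4%. Kat6b had 48.0% and Kat8 52.1%. Medians by GC class were not computed.

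An edgeR fit with an offset per library for gene length and GC content, added after seeing the data, called 0 of the 9 genes. It called 1.64% of all tested genes. With it the log2 fold change was -0.29 for Kat6b, -0.31 for Kat2b, -0.23 for Ep300, -0.20 for Crebbp and -0.17 for Kat6a. It was -0.31 for Kat5 and -0.29 for Kat2a, both further from 0 than without offsets, and -0.06 for Kat7 and 0.07 for Kat8. The lowest adjusted p in that fit was 0.176, for Kat6b. With the mean of the muscle markers as a covariate, Kat6b stood at -0.14, Kat2b at -0.16 and Crebbp at 0.01. Ep300 then stood at -0.17, Kat6a at -0.22 and Kat8 at 0.14. Kat2a at -0.28, Kat5 at -0.14 and Kat7 at -0.11 were further from 0 than without the covariate. Summed muscle markers were highest in Hdac3 CKO replicate 1, and the part of muscle in these values was not tested. That library also stood apart by gene length, so muscle content and the length trend cannot be told apart here.

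**Figure D3:**
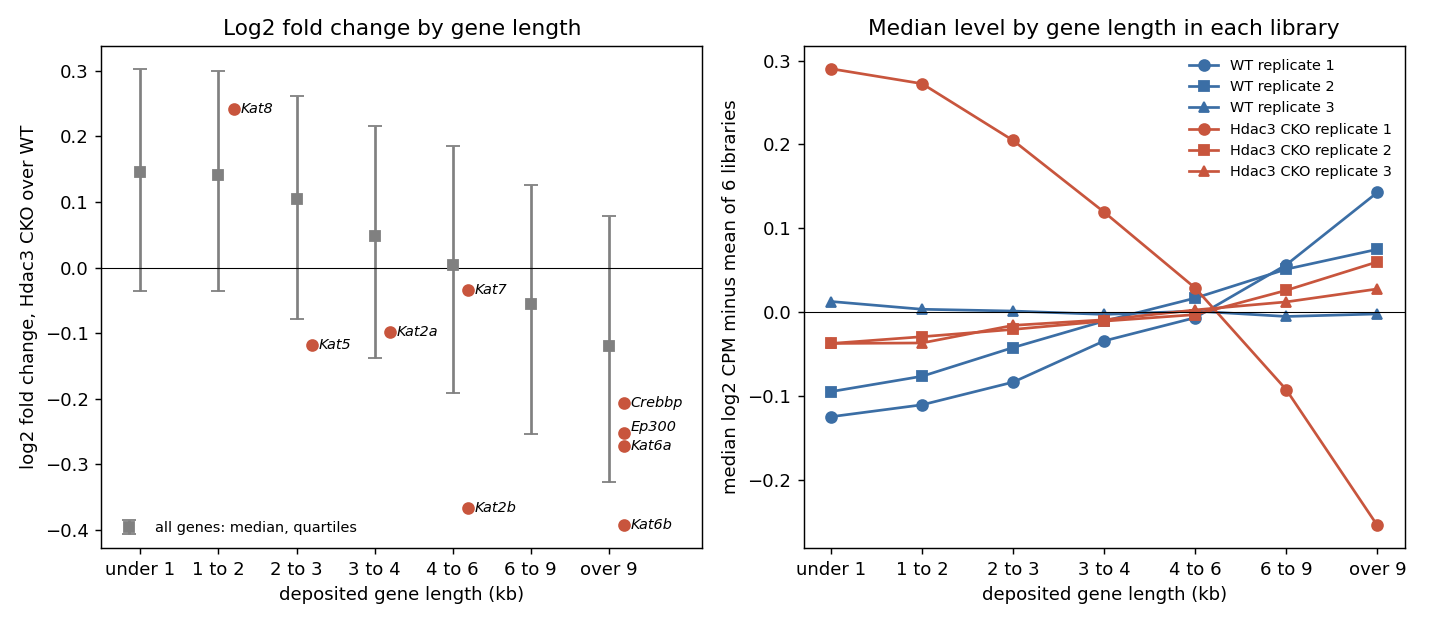
Left, log2 fold change (Hdac3 CKO over WT) against deposited gene length in kb, with the median and quartiles of all genes (grey) and the 9 acetyltransferase genes (red). Right, the median log2 CPM of each length class in each library minus the mean of the 6 libraries; Hdac3 CKO replicate 1 runs from 0.29 under 1 kb to -0.25 over 9 kb.

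Levels were compared between genes per kilobase of deposited gene length (TMM CPM per kb). By this length Kat5 was the highest in WT at 11.03 ± 0.41 CPM per kb (SD, n = 3), followed by Kat2a at 9.31 ± 0.68 and Kat7 at 9.30 ± 0.44, which overlapped. Kat6a at 7.74 ± 1.20, Kat8 at 7.18 ± 0.34, Crebbp at 7.05 ± 1.17 and Kat2b at 6.50 ± 0.41 CPM per kb each overlapped the next. Ep300 at 5.02 ± 0.53 and Kat6b at 3.24 ± 0.27 CPM per kb stood below them without overlap. In Hdac3 CKO, Kat5 was again the highest by deposited length at 10.2 ± 0.34 CPM per kb and Ep300 and Kat6b again the lowest, at 4.21 ± 0.50 and 2.47 ± 0.44 CPM per kb. There Kat8 at 8.49 ± 0.98 CPM per kb stood above Kat6a at 6.42 ± 1.12, and the ranges of these 2 genes overlapped. The places of Kat5 and Kat8 rest on their deposited lengths of 2008 and 1573 bases, since the union of GENCODE M21 exons is 3509 and 2891 bases. With that length Kat5 stood at 6.31 ± 0.23 CPM per kb (SD, n = 3) in WT and 5.82 ± 0.20 in Hdac3 CKO, below Kat2a and Kat7 in both genotypes. Kat8 then stood at 3.91 ± 0.18 CPM per kb in WT and 4.62 ± 0.53 in Hdac3 CKO, below Kat6a. Kat6b was the lowest with either length. In WT the 9 genes lay between the 48.8th percentile (Kat6b) and the 78.9th percentile (Kat5) of all tested genes by deposited length. Summed over the 9 genes, the level was 68.9, 66.5 and 63.7 CPM per kb in WT and 60.6, 59.4 and 62.1 CPM per kb in Hdac3 CKO by deposited length.

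The balance within the 3 paralogue pairs was compared as a log2 ratio of the deposited RPKM inside each library, which needs no scaling between libraries. The ratio of Ep300 to Crebbp was -0.67, -0.21 and -0.57 in WT and -0.46, -0.73 and -0.41 in Hdac3 CKO, so Crebbp was the higher of this pair in all 6 libraries. The ratio of Kat6a to Kat6b was 1.23, 1.49 and 1.02 in WT and 1.62, 1.02 and 1.51 in Hdac3 CKO, with Kat6a higher in all 6. The ratio of Kat2a to Kat2b was 0.31, 0.61 and 0.64 in WT and 1.30, 0.44 and 0.64 in Hdac3 CKO, with Kat2a higher in all 6 and Hdac3 CKO replicate 1 far above the rest. None of the ratios separated the genotypes. The difference between Hdac3 CKO and WT was -0.05 for Ep300 over Crebbp (p = 0.9), 0.28 for Kat2a over Kat2b (p = 0.4) and 0.13 for Kat6a over Kat6b (p = 0.6) in two-sided exact permutation tests, each with an adjusted p of 0.9 over the 3 pairs. Without Hdac3 CKO replicate 1 the difference of Kat2a over Kat2b was 0.03 and that of Kat6a over Kat6b 0.02, while that of Ep300 over Crebbp was -0.09. Without Hdac3 CKO replicate 2 the first of these moved the other way, to 0.45 (p = 0.1 by exact permutation, the lowest possible with 3 against 2), and the second to 0.31 (p = 0.2 by exact permutation). Leaving out WT replicate 1 gave 0.17 for Kat2a over Kat2b, and for Kat6a over Kat6b leaving out WT replicate 2 gave 0.25, WT replicate 3 gave 0.02 and Hdac3 CKO replicate 3 gave 0.07.

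**Figure D4:**
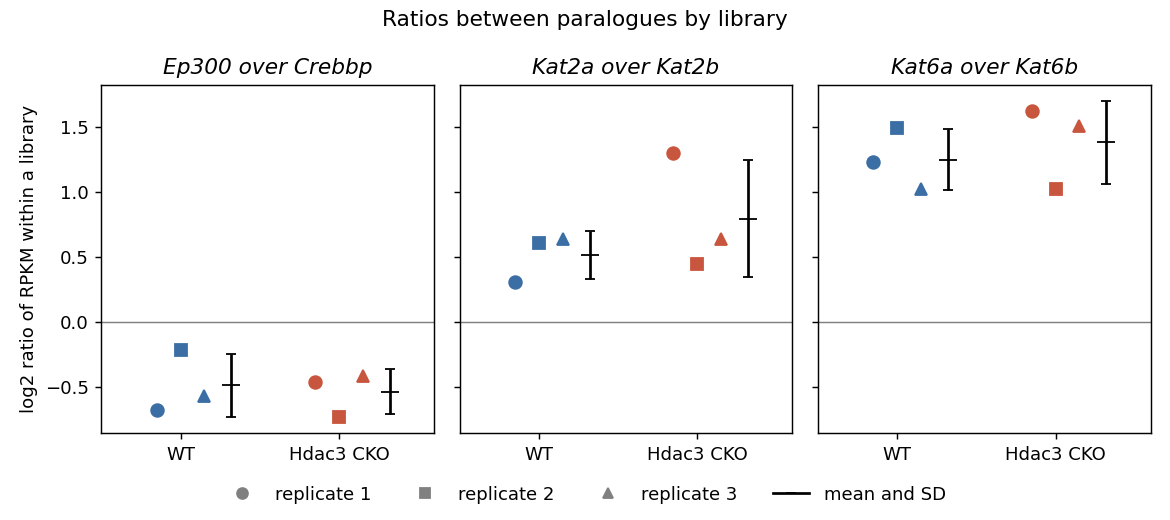
Log2 ratio of RPKM between the members of each paralogue pair in the 3 WT (blue) and 3 Hdac3 CKO (red) libraries, with black bars for mean and SD and a grey line at equal levels. The genotypes overlap in every pair, and the single high point of Kat2a over Kat2b, at 1.30, is Hdac3 CKO replicate 1.

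The genes that work with these enzymes were read from 9 lists covering complex partners, other acetyltransferases, readers, acetyl-CoA supply and deacetylases. Of 115 listed genes other than Hdac3, 0 rose and 0 fell in edgeR's quasi-likelihood test, where 1.12% of all tested genes were called. An unadjusted p under 0.05 was found for 13, or 11.3%, beside 14.7% of all tested genes. Of these 11 were lower and 2 higher, where 7.0% of all tested genes were lower and 7.68% higher. The genotypes did not overlap for 33 of the 115, or 28.7%, beside 22.5% of all tested genes, 10.9% lower and 11.5% higher. Lower and higher, these were 5 and 2 for SAGA and ATAC and 3 and 0 for NuA4/TIP60. For BRPF, JADE and ING they were 2 and 1, and for MSL and NSL 2 and 2. Partners of p300 and CBP had 2 and 1, and other acetyltransferases 1 and 0. Bromodomain genes had 3 and 2, acetyl-CoA supply 0 and 2, and deacetylases, with Hdac3 among the lower, 5 and 1. Nothing is read from the difference from the background. DESeq2 and limma-voom called none of the 115 either, where they called 4.12% and 0.777% of all tested genes. The median log2 fold change of the 115 was -0.04. Without Hdac3 CKO replicate 1, 0 of the 115 were called in edgeR, beside 0.973% of all genes then tested. In that fit 12 had an unadjusted p under 0.05, or 10.4%, beside 13.4%, and the median was again -0.04.

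In the SAGA and ATAC list 0 of 20 genes passed, with a median of -0.07. The SAGA subunit Tada1 was at 25.6 ± 2.1 CPM (SD, n = 3) in WT and 20.0 ± 0.5 CPM (SD, n = 3) in Hdac3 CKO, a log2 fold change of -0.36, and Taf6l, another subunit, stood at 0.35. Of 16 NuA4/TIP60 subunits 0 passed and the median was -0.01. Brd8, a bromodomain subunit, averaged 76.8 ± 3.1 CPM (SD, n = 3) in WT and 56.8 ± 9.5 CPM (SD, n = 3) in Hdac3 CKO, at -0.44, and Ing3 stood at -0.44 as well. Of 9 BRPF, JADE and ING genes 0 passed, with a median of -0.03, and the smallest p belonged to Jade3 at -0.68 and Jade1 at -0.35. Of 10 MSL and NSL genes 0 passed, with a median of -0.02. There Ogt, which encodes the enzyme that attaches O-linked N-acetylglucosamine to proteins, averaged 352 ± 40 CPM (SD, n = 3) in WT and 227 ± 78 CPM (SD, n = 3) in Hdac3 CKO, a log2 fold change of -0.63 (adjusted p 0.266 in edgeR's quasi-likelihood test). Msl2 stood at -0.26. Hdac3 CKO replicate 1 was the lowest library for Ogt, at 145 CPM against 234 and 301 CPM in the others of its genotype. Without it Ogt stood at -0.41, Jade3 at -0.51, Jade1 at -0.22, Brd8 at -0.32, Ing3 at -0.37, Tada1 at -0.38, Taf6l at 0.23 and Msl2 at -0.14.

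Among 13 partners of p300 and CBP 0 passed, with a median of -0.05, and the steroid receptor coactivator Ncoa2 stood at -0.35 and the transcription factor Creb1 at -0.51. Among 13 other acetyltransferases 0 passed, with a median of -0.14. The corepressor gene Cdyl stood at -0.36 and Esco2, which acetylates cohesin, at -0.59. Of 16 bromodomain genes, which read acetylated lysine, 0 passed and the median was -0.17. Smarca2, an ATPase of SWI/SNF remodelling complexes, stood at -0.44 (adjusted p 0.197 in edgeR's quasi-likelihood test, the lowest of the 115), and Brd9 stood at -0.31. Of 8 genes for acetyl-CoA supply 0 passed, and here the median was above 0, at 0.10. Acss2, which makes acetyl-CoA from acetate, stood at 0.25 and Crat at 0.37. Among 11 histone deacetylases Hdac3 fell, as given above, and the other 10 did not pass. Hdac2, its class I relative, stood at -0.31. Without Hdac3 CKO replicate 1 Creb1 stood at -0.26, Esco2 at -0.34, Ncoa2 at -0.23, Cdyl at -0.38, Smarca2 at -0.37, Brd9 at -0.31 and Hdac2 at -0.24. The acetyl-CoA genes Acss2 and Crat then stood at 0.17 and 0.09.

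**Figure D5:**
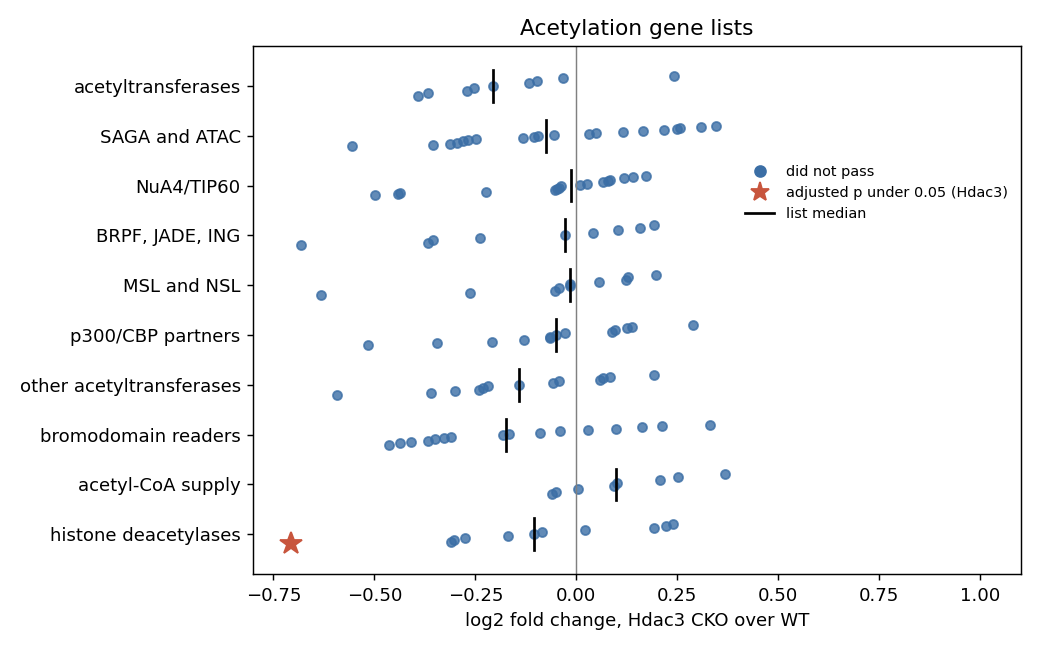
Log2 fold change, Hdac3 CKO over WT, of each gene in the acetyltransferase group and in 9 lists of related genes, with black lines at list medians. Hdac3 (star) is the single gene past an adjusted p of 0.05, and the medians run from -0.21 for the acetyltransferases to 0.10 for acetyl-CoA supply.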

How the data were processed

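RNA-seq of limb bone was deposited as 1 table of read counts and 1 of RPKM, 6 libraries each. The submitters' processing notes list TopHat2 2.1.0, featureCounts, Subread, bcl2fastq 1.8.4 and the build mm10. Annotation release, strand setting and handling of multiply mapped reads: not given in the sources used here. The deposited counts are whole reads per gene. The RPKM values deposited by the authors scale reads by gene length and by a library total. Of that total, 72.1% (WT replicate 1) to 87.0% (Hdac3 CKO replicate 1) lay in genes.

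Counts were fitted in edgeR 4.0.16 (R 4.3.3): filterByExpr left 20210 genes with 99.95% of counts, followed by TMM, the quasi-likelihood test with robust moderation, 4 residual degrees of freedom, no covariate and Benjamini-Hochberg adjustment over all tested genes. All 9 acetyltransferase genes passed the filter, with 495 to 5769 counts per library. A log2 fold change carries its standard error, and intervals cover 95%. DESeq2 1.42.0, limma 3.58.1 and the other alternatives are in the closing section. The procedure was tested on simulated data. Replicates were numbered in record order, and the labels share no numbers between genotypes. Gene coordinates come from the deposited counts (mm10). Of the gene IDs there, 97.96% were found in GENCODE M21, from which GC content and exon overlaps were taken, and listed genes under older symbols were matched by ID.

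The members and lists were chosen with earlier results of these data known. The text names all 9 members, Hdac3 and, of each list, any called gene and the 2 with the smallest p. Genes that share exons with members are named from the annotation. The osteoblast, muscle and B lymphoid markers named were chosen after their values were seen, as were the exon unions used as a second length. No sum over members was tested.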

Additional observations from a re-analysis of the deposited data

How the results depend on the processing

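In each of the 18 alternatives 0 of the 9 acetyltransferase genes passed, and of their 162 log2 fold changes 159 kept their sign. The exceptions were Kat7, which ranged from -0.10 to 0.045 with 1 library left out (above 0 without Hdac3 CKO replicate 3) and was 0.047 without both cartilage-rich libraries, and Crebbp, at 0.014 with the muscle covariate. The change in the ratio of Ep300 over Crebbp ranged from -0.145 to 0.086 with 1 library left out; it was 0.086 without WT replicate 2 and 0.048 without Hdac3 CKO replicate 2. That of Kat6a over Kat6b turned to -0.042 without both cartilage-rich libraries, and with 1 library left out it ranged from 0.015 to 0.314, as that of Kat2a over Kat2b did from 0.025 to 0.453. The share of tested genes called was 1.12% (135 rose and 91 fell), and with library totals the split was 54 and 106. The share was 4.12% in DESeq2 (454 rose and 374 fell), 0.0247% in limma after adding 1 to RPKM and 0.614% after adding 0.1 (41 rose and 83 fell), 0% without both cartilage-rich libraries, 0.604% with the cartilage covariate and 0.163% with the muscle covariate. Without a filter on low counts more genes were tested, and 257 rose and 193 fell. With 1 library left out the share ranged from 0.127% to 0.973%. Of the listed acetylation genes 1, Hdac3, was called; this became 0 in both RPKM fits, without both cartilage-rich libraries and with either covariate, and 0 to 1 with 1 library left out. The cause of these shifts was not tested, though fewer libraries enter the fits that leave some out. No paired analysis was possible because the labels give no replicate numbers shared between genotypes. Standard errors of 0.12 to 0.17 on the log2 scale, from 3 libraries a genotype, limit the precision for the 9 genes.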
